A study of Rattus norvegicus with 31 samples.

Results

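The genes described here are 9 genes of iron homeostasis, Hamp, Bmp6, Tmprss6, Tfr2, Hfe, Tfrc, Tf, Slc40a1 and Fth1, taken by symbol from the gene column of the count table. All 9 were found among its 26312 genes, and all 9 were among the 19904 genes tested. Their RNA was measured by total RNA-Seq in livers of 31 young adult female Wistar rats (Crl:WI), each gavaged daily for 28 days. The 8 control rats received the vehicle, aqueous carboxymethyl-cellulose, which all treated rats received too. Thiacloprid (THI, a neonicotinoid insecticide) was given at 108 mg/kg bw/day to 4 rats, and imazalil (IMZ, an azole fungicide) at 93 mg/kg bw/day to 4 rats. Clothianidin (CTD, a neonicotinoid insecticide) was given at 288 mg/kg bw/day, and livers of 3 rats were sequenced. The paper marks this CTD group for the killing of moribund animals, so these 3 rats are those that remained. The binary mixtures, with 4 rats each, were THI + IMZ (54 and 46 mg/kg bw/day), THI + CTD (54 and 134 mg/kg bw/day) and IMZ + CTD (46 and 135 mg/kg bw/day). Doses thus differed between the single compounds and between a compound and its mixtures, and no test between compounds was made.

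The liver makes hepcidin, the hormone encoded by Hamp, which binds the iron exporter ferroportin and causes its degradation, so that less iron enters the plasma. Hamp transcription is driven by BMP/SMAD signalling, which starts with BMP6 and BMP2 from sinusoidal endothelial cells, and by IL-6 through STAT3. On hepatocytes HFE and transferrin receptor 2 sense iron-loaded transferrin, while the protease matriptase-2, encoded by Tmprss6, dampens the BMP signal by cleaving hemojuvelin.

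Library totals ran from 31.8 to 101.2 M counts (M, the SI prefix mega), with a median of 41.0 M counts, and the counts of a member in a liver ran from 100 for Bmp6 to 4622750 for Tf. Levels are given as CPM (counts scaled to library size, which was normalized by TMM) and are not compared between genes because transcript lengths were not used. Sequencing batches were not named by the labels. Summed levels of 10 hepatocyte markers lay between 144172 and 226752 CPM in all livers, and none of the markers of hepatocytes or of 5 other cell classes was at 0 in every liver. In whole liver, fewer cells of a type and less RNA per cell cannot be told apart. All 7 groups were fitted in 1 model, in which edgeR's quasi-likelihood test set each treatment against the 8 controls, and genes with an adjusted p under 0.05 are called differentially expressed genes (DEGs). The 6 comparisons share their controls and are not independent. The largest shift of the median gene was -0.07 on the log2 scale, in CTD.

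The promoters were read for the letters of motifs that belong to the inputs of the pathway. RefSeq promoters on rat build GRCr8 were found for 6 of the 9 members (Hamp, Tf, Tfrc, Tfr2, Slc40a1 and Bmp6), and the 250 bases before the annotated start were searched on both strands for 3 motifs. These were GGCGCC, the core of the BMP response element, present in 8.69% of all 33469 promoters, TTCNNNGAA, the letters of a STAT site, present in 7.67%, and TGACNNNGC, the core of the antioxidant response element, present in 10.1%. Shown, 5′ to 3′ on the minus strand that carries the gene, are Hamp (chr1:95300272-95300521), on which the inputs converge, Tfrc (chr11:81690319-81690568), the other member with a match, and Tfr2 (chr12:24761369-24761618), the member that was a DEG in 2 treatments. Capitals mark the motif matches, and the matches do not overlap.
Hamp: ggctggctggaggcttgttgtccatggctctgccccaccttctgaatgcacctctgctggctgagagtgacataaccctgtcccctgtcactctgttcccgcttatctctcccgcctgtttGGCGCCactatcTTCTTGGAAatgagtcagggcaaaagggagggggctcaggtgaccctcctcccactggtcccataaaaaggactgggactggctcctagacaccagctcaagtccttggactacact
Tfrc: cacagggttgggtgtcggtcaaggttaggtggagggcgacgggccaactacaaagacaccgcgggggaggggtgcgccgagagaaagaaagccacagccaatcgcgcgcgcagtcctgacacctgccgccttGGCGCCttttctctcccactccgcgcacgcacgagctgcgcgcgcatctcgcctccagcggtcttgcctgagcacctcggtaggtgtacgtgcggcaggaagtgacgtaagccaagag
Tfr2: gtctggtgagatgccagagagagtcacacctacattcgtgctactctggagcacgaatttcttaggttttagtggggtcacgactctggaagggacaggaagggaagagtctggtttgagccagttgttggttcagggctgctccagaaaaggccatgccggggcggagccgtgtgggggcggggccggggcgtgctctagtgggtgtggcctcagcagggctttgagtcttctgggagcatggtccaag
The Hamp promoter held GGCGCC from 129 to 124 bases before the start and TTCTTGGAA from 117 to 109 bases before it, and the Tfrc promoter held GGCGCC from 118 to 113 bases before its start. The other 4 members with a promoter had no match to the 3 motifs in this window. A match describes letters and does not show that a factor binds there.

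Tmprss6, Tfr2 and Slc40a1 fell in CTD, and Tfr2 fell in IMZ + CTD too. In CTD, 3 of the 9 members were DEGs and all 3 were lower, while 12.7% of all genes tested were DEGs and 6.03% were lower DEGs. In IMZ + CTD, Tfr2 was the 1 DEG of 9 and was lower, beside 1.46% of all genes and 0.452% as lower DEGs. No member was a DEG in THI (0.543% of all genes), IMZ (0.251%), THI + IMZ (1.18%) or THI + CTD (4.39%), although 1, 4, 3 and 3 members, respectively, had an unadjusted p under 0.05 there. DESeq2's Wald test on the same genes called 0 members in THI, 2 in IMZ, 0 in THI + IMZ and 1 in THI + CTD. Of all 19904 genes it called 199, 150, 435 and 1386, respectively. The median log2 fold change of the 9 members was -0.17 in CTD, beside -0.07 over all genes, and between -0.07 and 0.09 in the other 5 treatments, beside -0.03 to -0.01 over all genes.

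A second measure, groups that did not overlap with the controls, matched the DEGs only in part. The CTD livers lay below all 8 controls for Tfr2 and Tmprss6 (2 of 9 members, beside 10.8% of all genes without overlap), the IMZ livers for Tmprss6 (1 of 9, beside 1.27%) and the IMZ + CTD livers for Hamp and Tfr2 (2 of 9, beside 2.62%). The THI + CTD livers lay below all controls for Tfr2 and above them for Hfe (2 of 9, beside 3.96%). Every member overlapped with control in THI (1.42% of all genes without overlap) and in THI + IMZ (1.46%).

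**Figure D1:**
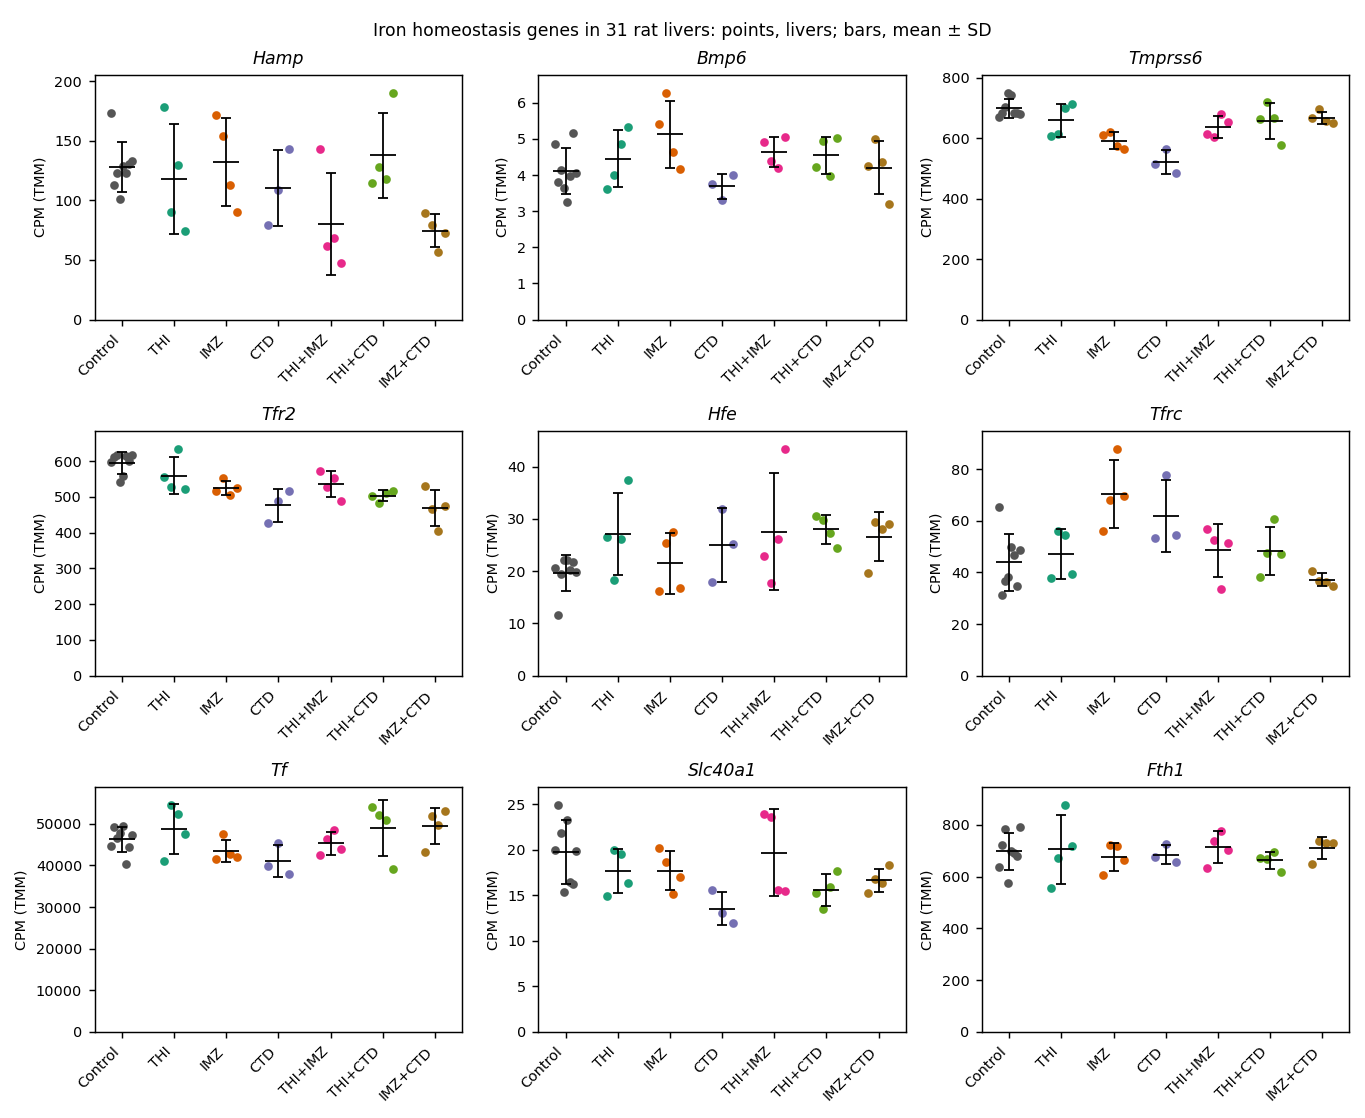
Level of each of the 9 iron homeostasis genes (CPM, y axis from 0) in each liver (points) of the 7 groups (x axis), with the group mean and SD as bars. The 3 CTD livers lie below all 8 controls for Tmprss6 and Tfr2, and the 4 IMZ + CTD livers lie below them for Hamp and Tfr2.

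Hepcidin RNA was lowest in the mixtures that held IMZ, but Hamp (ENSRNOG00000021029) was a DEG in no treatment. The 8 controls ran from 100.7 to 173.5 CPM with a median of 125.9 CPM. The IMZ + CTD livers stood at 89.6, 79.3, 56.9 and 72.95 CPM, and the THI + IMZ livers at 143, 62.1, 68.1 and 47.7 CPM. All 4 IMZ + CTD livers and 3 of 4 THI + IMZ livers were thus below every control, and THI + IMZ replicate 1 was not. The group means were 58.3% of the control mean in IMZ + CTD and 62.5% in THI + IMZ. The log2 fold changes, -0.78 ± 0.24 (SE) with an adjusted p of 0.106 and -0.68 ± 0.24 with an adjusted p of 0.212, did not pass edgeR's quasi-likelihood test across all genes.

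Livers of 1 group varied widely in Hamp, whose lowest count in any liver was 1937. Its coefficient of variation was 16.5% in the 8 controls, 53.1% in THI + IMZ and 39.1% in THI. DESeq2's Wald test did not call it either (adjusted p = 0.157 in THI + IMZ and 0.0736 in IMZ + CTD). Of the 31 fits that left out 1 liver, 1 called Hamp: without THI + IMZ replicate 1, the only liver of its group not below the controls, edgeR's adjusted p was 0.0103 in THI + IMZ (log2 fold change -1.11) and 0.0419 in IMZ + CTD. With only the groups compared in the model, the adjusted p was 0.00336 in IMZ + CTD and 0.217 in THI + IMZ.

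The other 4 treatments left Hamp within or around the control range. The THI livers stood at 178, 90.0, 130 and 74.7 CPM and the IMZ livers at 171, 154, 113 and 90.4 CPM. The CTD livers stood at 79.3, 109 and 143 CPM and the THI + CTD livers at 115, 128, 118 and 190 CPM. Each of these groups overlapped with the controls, and the log2 fold changes ran from -0.21 in CTD to 0.10 in THI + CTD, all with an adjusted p of 0.632 or more.

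Bmp6 (ENSRNOG00000013717), the iron-responsive BMP ligand, was a DEG in no treatment. Its controls ran from 3.24 to 5.17 CPM. The highest group was IMZ, with 5.42, 6.28, 4.64 and 4.17 CPM, of which 2 livers exceeded every control (log2 fold change 0.32 ± 0.13, adjusted p = 0.512). The lowest was CTD, with 3.75, 3.31 and 3.999 CPM (log2 fold change -0.16 ± 0.15, adjusted p = 0.552).

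Tmprss6 (ENSRNOG00000000184), which encodes matriptase-2, fell in CTD by 0.42 ± 0.08 (SE) on the log2 scale (adjusted p = 0.000223), the smallest adjusted p of any member in the 6 treatments. The 8 controls ran from 669.6 to 750.2 CPM with a median of 682.2 CPM, and the 3 CTD livers stood at 515, 564 and 486 CPM. The CTD livers were all below the lowest control, at 74.6% of the control mean on average. The call held with each of the 31 livers left out in turn and under all 7 other alternatives.

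In IMZ the 4 livers stood at 611, 619, 573 and 564 CPM of Tmprss6, again all below the lowest control. Their log2 fold change of -0.24 ± 0.07 had an adjusted p of 0.173 with edgeR and of 0.0107 with DESeq2. The mixture of both compounds, IMZ + CTD, had 668, 695, 656 and 651 CPM, which overlapped with the controls (log2 fold change -0.07 ± 0.07, adjusted p = 0.7). Over all treatments, 18 of the 23 treated livers had less Tmprss6 RNA than any control and none had more. In order of the group means, CTD (522 ± 39.7 CPM, SD, n = 3) and IMZ (592 ± 27.4 CPM, n = 4) came first, then THI + IMZ, THI + CTD, THI, IMZ + CTD and control (699 ± 30.7 CPM, n = 8). Of these 6 steps, the 1 between CTD and IMZ was larger than the sum of the SDs of its groups.

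Tfr2 (ENSRNOG00000001407), the hepatocyte sensor of transferrin-bound iron, fell in CTD and in IMZ + CTD. The 8 controls ran from 540.4 to 618.2 CPM with a median of 605.4 CPM. The CTD livers stood at 426, 488 and 516 CPM and the IMZ + CTD livers at 530.1, 465, 405 and 476 CPM. Both groups lay below every control. The fall was 0.32 ± 0.08 (SE) on the log2 scale in CTD (adjusted p = 0.00723) and 0.34 ± 0.07 in IMZ + CTD (adjusted p = 0.00936). Each call depended on 1 liver: the adjusted p was 0.101 in CTD without CTD replicate 1 and 0.102 in IMZ + CTD without IMZ + CTD replicate 3, the lowest livers of their groups.

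The other groups had intermediate levels of Tfr2. The THI + CTD livers, at 502, 484, 511 and 518 CPM, also lay below every control, and their log2 fold change of -0.24 ± 0.07 just missed the threshold (adjusted p = 0.0537). Leaving out 1 liver turned this into a call in 7 of 31 cases. In IMZ the livers stood at 517, 552, 505 and 525 CPM, in THI + IMZ at 573, 527, 552 and 490 CPM, and in THI at 556, 526.2, 634 and 522 CPM. In all, 22 of the 23 treated livers were below the control median and 18 were below every control. From the lowest to the highest group mean, IMZ + CTD (469 ± 51.2 CPM, SD, n = 4), CTD, THI + CTD, IMZ, THI + IMZ, THI (560 ± 51.9 CPM, n = 4) and control (595 ± 29.6 CPM, n = 8) followed each other in steps that were each smaller than the sum of the SDs of the groups.

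Hfe (ENSRNOG00000016967), whose product works with transferrin receptor 2 and is mutated in hereditary hemochromatosis, was a DEG in no treatment, with log2 fold changes from 0.12 in IMZ to 0.50 in THI + CTD. The controls ran from 11.6 to 22.2 CPM, where control replicate 2 was the lowest and the next had 19.4 CPM. The THI + CTD livers stood at 30.5, 29.7, 27.3 and 24.4 CPM, and the IMZ + CTD livers at 19.6, 29.5, 28.1 and 29.1 CPM. Over all treatments, 17 of 23 treated livers had more Hfe RNA than any control and none had less. The other 6 came from every treatment but THI + CTD, whose log2 fold change was 0.50 ± 0.20 (adjusted p = 0.153).

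Tfrc (ENSRNOG00000001766), the transferrin receptor for iron uptake, whose mRNA is stabilized when cells lack iron, was highest in IMZ and CTD and lowest in their mixture. The controls ran from 31.1 to 65.2 CPM with a median of 42.4 CPM. The IMZ livers stood at 56.0, 68.0, 87.9 and 69.5 CPM and the CTD livers at 53.2, 77.8 and 54.6 CPM. The IMZ + CTD livers stood at 40.7, 36.6, 36.4 and 34.9 CPM. Control replicate 1, at 65.2 CPM, lay within the range of the IMZ and CTD livers, while the next highest control had 49.9 CPM. Neither IMZ (log2 fold change 0.68 ± 0.16, adjusted p = 0.0753) nor CTD (0.49 ± 0.18, adjusted p = 0.0674) passed edgeR's test, and both passed DESeq2's (adjusted p = 0.0116 and 0.0425). Both also passed edgeR's test without control replicate 1, and both without THI + IMZ replicate 3.

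In THI, THI + IMZ and THI + CTD, Tfrc ranged from 33.5 to 60.9 CPM, within the controls' range, with log2 fold changes between 0.10 and 0.14. Dividing cells and erythroid precursors also carry this receptor. The summed level of 10 genes of cell division was 45.7 to 169 CPM in CTD, 17.1 to 46.1 CPM in IMZ and 28.0 to 76.7 CPM in IMZ + CTD, against 6.54 to 17.6 CPM in control. The summed level of 11 erythroid markers was 160 to 196 CPM in CTD, 48.5 to 84.8 CPM in IMZ and 22.5 to 74.0 CPM in IMZ + CTD, against 28.8 to 71.0 CPM in control. Their part in the level of Tfrc was not tested.

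Tf (ENSRNOG00000030625), which encodes the plasma iron carrier transferrin, took 3.87% to 5.47% of all counts and was a DEG in no treatment. The controls ran from 40399 to 49344 CPM. The group means ran from 88.7% of the control mean in CTD to 106.9% in IMZ + CTD, and each group overlapped with the controls. The largest log2 fold change in size, that of CTD, was -0.17 ± 0.11 (95% interval -0.39 to 0.05, adjusted p = 0.339).

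Slc40a1 (ENSRNOG00000003872) encodes ferroportin, the known exporter of cellular iron, in hepatocytes and in Kupffer cells that recycle iron from red blood cells. It fell in CTD by 0.54 ± 0.15 (SE) on the log2 scale (adjusted p = 0.0147). The 8 controls ran from 15.4 to 24.9 CPM with a median of 19.9 CPM, and the CTD livers stood at 15.6, 13.1 and 12.0 CPM. Of the 3 CTD livers, 2 were below every control, and CTD replicate 1 was just above control replicate 4. The call was lost without CTD replicate 2 or without CTD replicate 3, with an adjusted p of up to 0.0882.

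Some Kupffer cell markers were lower DEGs in CTD and in THI + CTD. Of the 11 markers, 4 fell in CTD (Cd68, Csf1r, C1qa and C1qb) and none rose, beside 6.03% of all genes as lower DEGs. The summed level of the 11 markers was 410 to 642 CPM in CTD against 514 to 843 CPM in control. In THI + CTD 4 of the 11 also fell (Cd163, Csf1r, C1qa and C1qb), beside 1.71% of all genes. The summed level was 432 to 578 CPM in THI + CTD. There the livers had 15.2, 13.5, 15.9 and 17.7 CPM of Slc40a1 (log2 fold change -0.34 ± 0.13, adjusted p = 0.16). In THI + IMZ, where the log2 fold change of Slc40a1 was -0.01, edgeR called 0 of the 11 markers (4 at an unadjusted p under 0.05), and their summed level was 440 to 602 CPM. In IMZ + CTD it also called 0 (4 at an unadjusted p under 0.05), with a summed level of 388 to 685 CPM. The part of Kupffer cells in the level of Slc40a1 was not tested. In every treatment some livers overlapped with the controls in Slc40a1. The other 4 treatments had log2 fold changes from -0.24 in IMZ + CTD to -0.01 in THI + IMZ.

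Fth1 (ENSRNOG00000022619), the heavy chain of the iron store ferritin, is controlled mainly at translation. It was a DEG in no treatment, and its log2 fold changes were between -0.07 and 0.03. The controls ran from 576.3 to 792.4 CPM and the treated livers from 557.5 to 876.2 CPM. The widest of the 95% intervals, that of CTD, ran from -0.23 to 0.18.

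**Figure D2:**
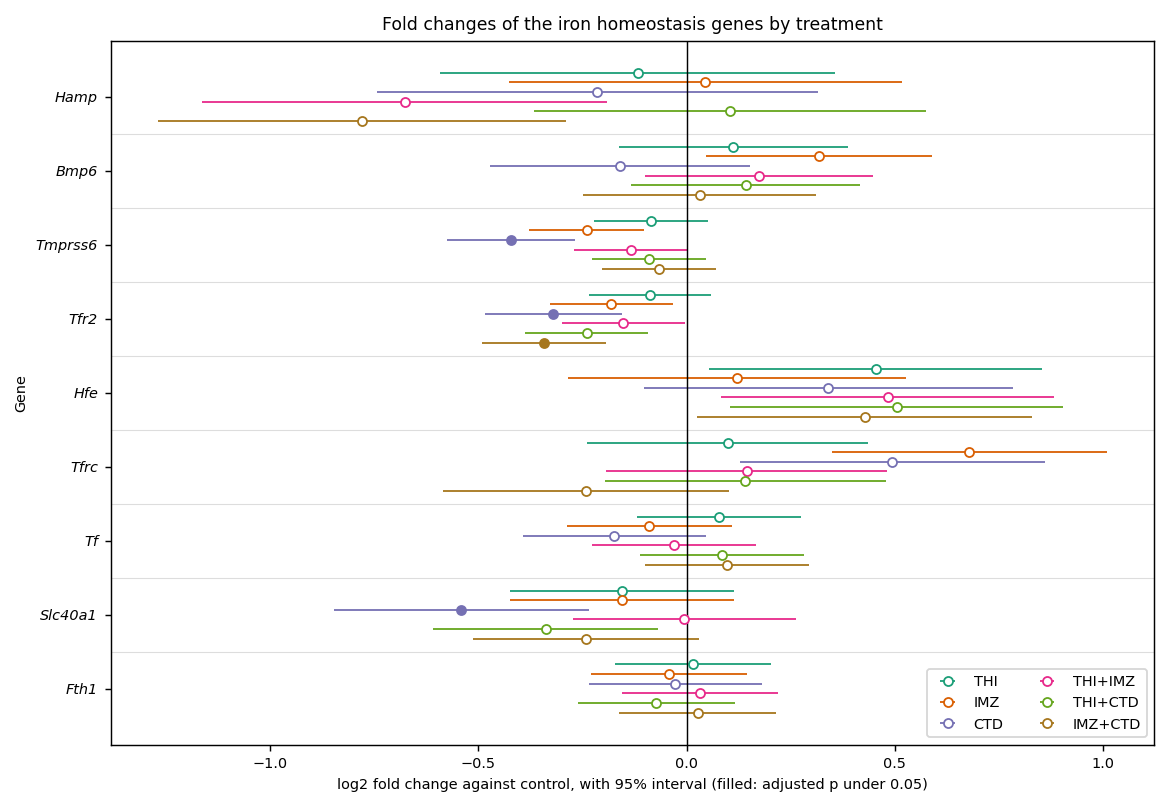
Log2 fold change against control (x axis) of the 9 genes (y axis) in the 6 treatments (colors), with 95% intervals from edgeR and filled points where the adjusted p is under 0.05. The filled points are Tmprss6, Tfr2 and Slc40a1 in CTD and Tfr2 in IMZ + CTD, all to the left of 0.

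When the mean of the 6 treatments was set against control, Tfr2 (-0.22 ± 0.05, adjusted p = 0.00397) and Tmprss6 (-0.17 ± 0.04, adjusted p = 0.0157) were lower. These were 2 of the 9 members, beside 5.74% of all genes. Hfe had a log2 fold change of 0.39 ± 0.14 (adjusted p = 0.0883 with edgeR and 0.0416 with DESeq2), and of 0.31 (adjusted p = 0.157 with edgeR) without control replicate 2. The values of Slc40a1 (-0.24, adjusted p = 0.1), Hamp (-0.27, adjusted p = 0.281) and Tfrc (0.22, adjusted p = 0.235) did not pass.

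To ask whether a mixture did what its compounds did alone, its log2 fold change was compared with a dose-weighted sum, in which the log2 fold change of each compound is weighted by the share of its single dose that the mixture held (0.5 for THI and IMZ, 0.47 for CTD). Tfrc in IMZ + CTD was the 1 of 9 members off its sum, beside 1.16% of all genes. Its log2 fold change was -0.24, whereas the sum was 0.57, a difference of -0.81 ± 0.17 (SE, adjusted p = 0.0166). All 4 IMZ + CTD livers had less Tfrc RNA than any of the 7 livers of IMZ or CTD. The call was lost without IMZ + CTD replicate 2, 3 or 4, with an adjusted p of up to 0.0797.

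Other members of IMZ + CTD missed the threshold against the sum. Tmprss6 was near control where the sum was -0.32 (difference 0.25 ± 0.07, adjusted p = 0.0548), and it passed with DESeq2 (adjusted p = 0.00248). Hamp was at -0.78 where the sum was -0.08 (difference -0.70 ± 0.24, adjusted p = 0.158). Tfr2, which fell in both CTD and IMZ + CTD, was at -0.34 where the sum was -0.24 (difference -0.10 ± 0.07, adjusted p = 0.569).

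No member was off the sum in THI + IMZ (0.0151% of all genes) or THI + CTD (0.286%) with edgeR or DESeq2, although 1 member in each had an unadjusted p under 0.05. In THI + IMZ this was Hamp, at -0.68 where the sum was -0.04 (difference -0.64 ± 0.24, adjusted p = 0.606). In THI + CTD it was Tmprss6, with a difference of 0.15 ± 0.07 (adjusted p = 0.463).

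**Figure D3:**
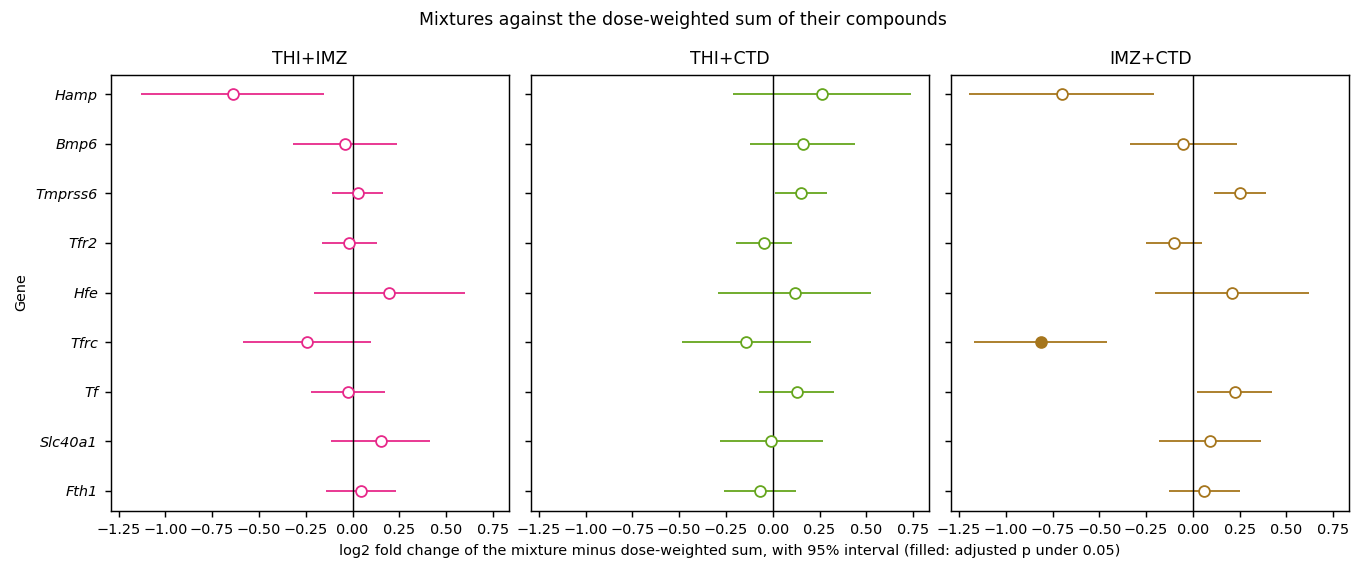
Log2 fold change of each mixture minus its dose-weighted sum (x axis) for the 9 genes (y axis), with 95% intervals and filled points where the adjusted p is under 0.05. Tfrc in IMZ + CTD is the filled point, at -0.81.

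Livers of the same group also differed in hepcidin RNA, and these differences were set against other iron genes after the group means were removed. Over 31 livers, 14 genes were compared with Hamp: the other 8 members, the BMP targets Id1, Smad6, Smad7 and Atoh8, and Socs3 and Crp, which respond to IL-6. Livers high in Hamp were high in Smad7, the inhibitory SMAD that BMP signalling induces (Pearson's r = 0.70, adjusted permutation p = 0.00462; Spearman's rho = 0.59, adjusted permutation p = 0.017). They were also high in Tfr2 (r = 0.61, adjusted permutation p = 0.0077, rho = 0.62, adjusted permutation p = 0.0151). The unadjusted permutation p-values were 0.00033 and 0.00243 for Smad7, and 0.0011 and 0.00108 for Tfr2.

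None of the other 12 genes passed the threshold after adjustment. Id1 (r = 0.49, adjusted permutation p = 0.106) and Atoh8 (r = 0.48, adjusted permutation p = 0.0706) came next, while Smad6, also a BMP target, had an r of -0.003 (rho = 0.06), and Bmp6 (r = 0.20) and Hfe (r = -0.15) had weak relations to Hamp. Without the 2 livers farthest from the median of Hamp, THI + IMZ replicate 1 and THI replicate 1, r was 0.68 for Tfr2 (adjusted permutation p = 0.00658) and 0.56 for Smad7 (adjusted permutation p = 0.0402), but rho for Smad7 then had an adjusted permutation p of 0.116. In the 8 controls alone r was 0.34 for Tfr2 and 0.47 for Smad7, and no relation of the 14 passed an exact permutation test after adjustment. Within groups the library total had an r of -0.05 with Hamp, -0.35 with Tfr2 and 0.08 with Smad7.

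**Figure D4:**
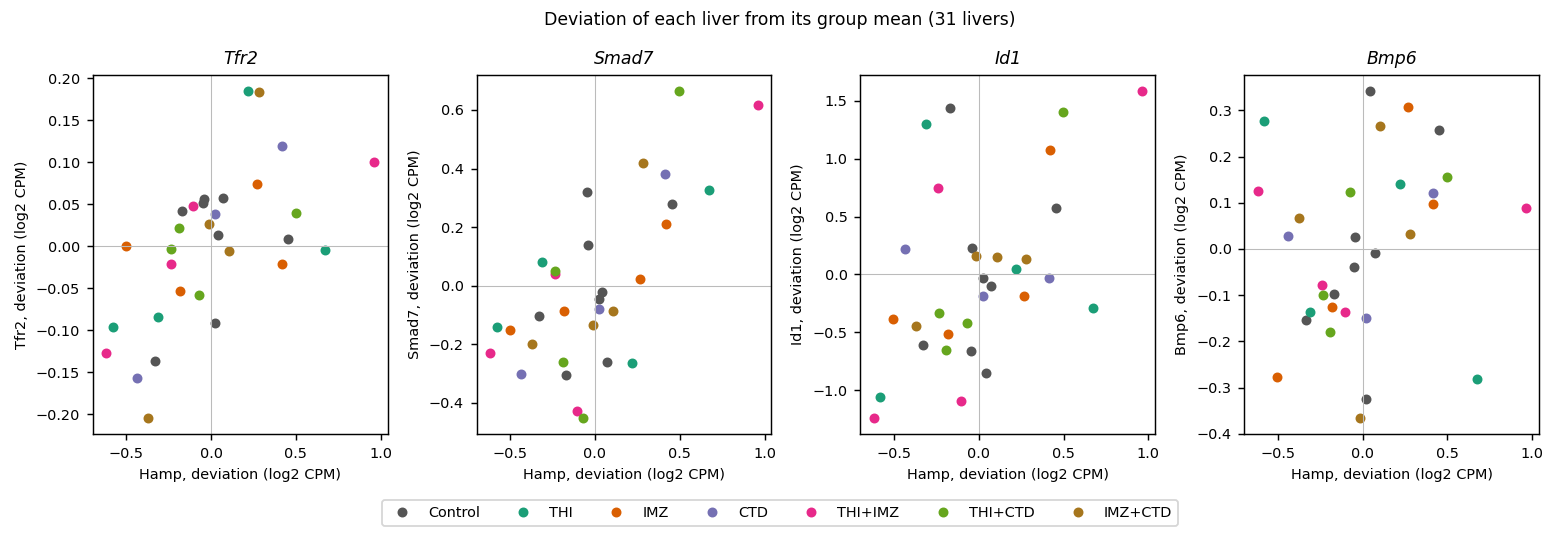
Deviation of each of 31 livers from its group mean (log2 CPM) for Hamp (x axes) and for Tfr2, Smad7, Id1 and Bmp6 (y axes), with colors for the groups. Points rise from left to right for Tfr2 (r = 0.61) and Smad7 (r = 0.70), and are scattered for Bmp6 (r = 0.20).

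Beyond the 9 members, 66 further iron genes of 6 lists were tested, and 8 of them (12.1%) fell in CTD, while none rose. In THI + CTD 4 (6.06%) fell, in THI + IMZ 1 (1.52%) rose, and in THI, IMZ and IMZ + CTD edgeR called 0 (with 6, 11 and 10 genes, respectively, at an unadjusted p under 0.05). Over all genes, 6.03% were lower DEGs in CTD and 12.7% were DEGs in either direction. Lower DEGs made up 1.71% of all genes in THI + CTD, and higher DEGs made up 0.849% in THI + IMZ. The median log2 fold change of the 66 genes in CTD was -0.09, beside -0.07 over all genes.

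In the BMP/SMAD arm, 3 of 17 genes fell in CTD, beside 6.03% of all genes as lower DEGs. Bmp2, the other endothelial ligand upstream of Hamp, fell by 1.18 ± 0.14 (SE) on the log2 scale (adjusted p = 1.33e-06), from 7.72 ± 1.05 CPM (SD, n = 8) in control to 3.41 ± 0.89 CPM (n = 3). It also fell in THI + CTD (by 0.52 ± 0.12, adjusted p = 0.0104). In IMZ + CTD its level of 7.04 ± 0.46 CPM (SD, n = 4) lay above the dose-weighted sum, by 0.60 ± 0.12 on the log2 scale (adjusted p = 0.0106). Smad6, an inhibitory SMAD, fell in CTD by 0.38 ± 0.12 (adjusted p = 0.0299), as did Furin, a proprotein convertase that cleaves the hepcidin and BMP precursors, by 0.38 ± 0.08 (adjusted p = 0.00154). Of 10 markers of sinusoidal endothelium, 2 (Kdr and Cdh5) fell in CTD, beside 6.03% of all genes as lower DEGs. The summed level of the 10 markers was 315 to 408 CPM in CTD against 369 to 462 CPM in control. In THI + CTD Kdr fell too (by 0.34, adjusted p = 0.0185), beside 1.71% of all genes, and the summed level was 331 to 399 CPM. The part of endothelial cells in the level of Bmp2 was not tested.

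Genes of haem handling made up the next group. Lower DEGs were 6.03% of all genes in CTD and 1.71% in THI + CTD. Alad and Urod, enzymes of haem synthesis, fell in CTD (by 0.56 ± 0.11, adjusted p = 0.000847, and by 0.31 ± 0.08, adjusted p = 0.00606), which made 2 of 8 genes of that list. Of 10 genes of haem scavenging and breakdown, Hpx, the plasma carrier hemopexin, fell by 0.49 ± 0.10 (adjusted p = 0.000849). Lrp1, its receptor, fell by 1.11 ± 0.16 in CTD (adjusted p = 1.9e-05), from 2008 ± 345 CPM (SD, n = 8) to 930 ± 132 CPM (n = 3). In THI + CTD Lrp1 fell by 0.68 ± 0.14 (adjusted p = 0.00423), together with Cd163, the receptor of Kupffer cells for haptoglobin-bound hemoglobin (by 0.50 ± 0.14, adjusted p = 0.0279).

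Of 15 genes of the IL-6/STAT3 arm, Lbp, an acute phase protein that binds lipopolysaccharide, fell in CTD by 0.77 ± 0.24 (adjusted p = 0.0327). Il6r, the IL-6 receptor, fell in THI + CTD by 0.42 ± 0.11 (adjusted p = 0.0268). Lower DEGs were 6.03% of all genes in CTD and 1.71% in THI + CTD, and higher DEGs were 0.849% in THI + IMZ. Socs3, the feedback inhibitor of STAT3, rose in THI + IMZ by 1.59 ± 0.40 (adjusted p = 0.0374), where livers ranged from 3.79 to 40.7 CPM against 3.53 to 9.76 CPM in control. Of the 11 genes of iron uptake and transport and the 5 tested genes of iron storage and IRP control, edgeR called 0 in each of the 6 treatments, with at most 2 genes of either list at an unadjusted p under 0.05 in a treatment.

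**Figure D5:**
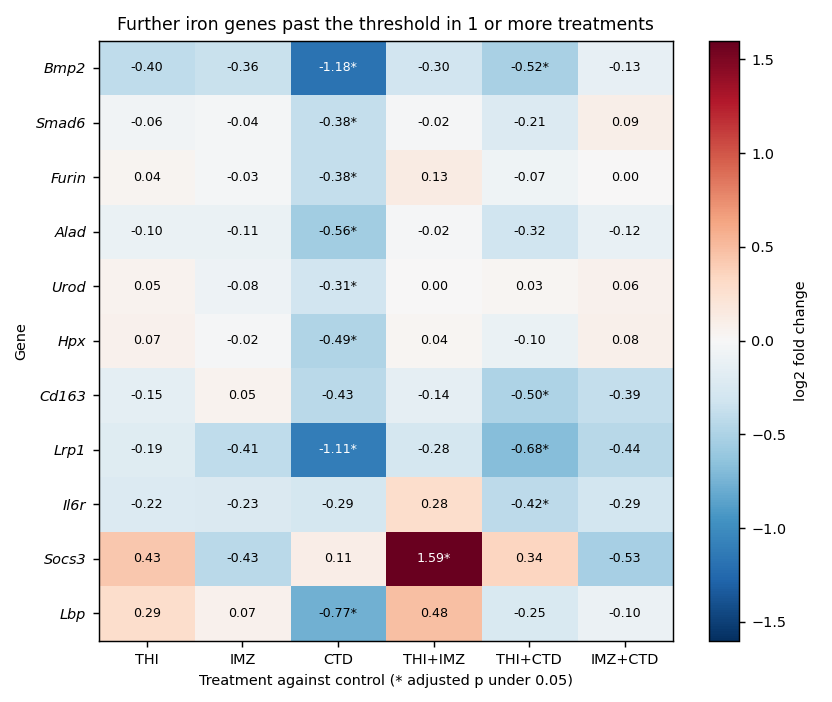
Log2 fold changes against control (numbers and colors) of the 11 further iron genes (rows) that were DEGs in at least 1 of the 6 treatments (columns), with asterisks for an adjusted p under 0.05. The 8 asterisks of CTD are all on negative values, and the 1 of THI + IMZ is on Socs3, at 1.59.

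Other marker lists were read in the same livers, as RNA levels that do not count cells. Single markers are named after their values were seen. Over all genes, higher DEGs were 6.62% in CTD, 0.191% in IMZ, 0.849% in THI + IMZ, 2.67% in THI + CTD and 1% in IMZ + CTD. Lower DEGs were 6.03% of all genes in CTD and 1.71% in THI + CTD. Of 11 erythroid markers, 5 rose in CTD (Hba1, Hba2, Hbb, Hbb-b1 and Alas2, with log2 fold changes between 2.11 and 2.83) and Slc4a1 fell by 0.77, while Hbb rose in THI + CTD by 1.59. Of 10 genes of cell division, 10 rose in CTD, 8 in THI + IMZ, 9 in THI + CTD and 9 in IMZ + CTD, and edgeR called 0 in THI and 0 in IMZ, where 0 and 9 had an unadjusted p under 0.05. Of 10 lymphocyte markers edgeR called 0 in each treatment, with at most 3 at an unadjusted p under 0.05. Of 10 hepatocyte markers Tat fell in CTD, Tat and Serpina1 fell in THI + CTD, and Apoa1 rose in THI + IMZ. Of 9 markers of stellate cells and fibroblasts, Col3a1 rose and Reln fell in CTD, Rgs5 rose in IMZ and in THI + IMZ, and in THI + CTD Col1a1 rose while Reln and Hgf fell. Their part in the levels of the iron genes was not tested.

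The genes whose pattern over the 31 livers was most like that of the members that were DEGs were found among 10875 candidates, by the root mean square difference of standardized log2 CPM. They were Sulf2 (0.58 SD), Hgfac (0.60 SD) and Gsdmd (0.64 SD) for Tfr2. For Tmprss6 they were Macrod1 (0.56 SD), Ndufa11 (0.61 SD) and Npc2 (0.61 SD), and for Slc40a1 Cpn1 (0.54 SD), Rab7l1 (0.59 SD) and Txndc11 (0.60 SD). None of these 9 genes belongs to the iron lists.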

How the data were processed

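Total RNA of frozen liver was prepared with a stranded total RNA kit. The authors checked reads with FastQC 0.11.5, mapped them to rat build Rnor_5.0 with STAR 2.5.2b and deposited whole-number counts per gene and liver, without normalization. A second deposited table holds a normalized signal, equal to the count divided by the library's DESeq2 size factor (to a relative tolerance of 1e-10; DESeq2 1.15.1 is named in the submitters' processing notes), which was not used for tests. The annotation release and the strand setting of the counting are not given in the sources used here, so reads of overlapping genes cannot be told apart. Coordinates on Rnor_5.0 were not used.

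Livers were grouped by the sample labels, and each is a separate rat. The smallest chi-square per degree of freedom between the counts of 2 libraries of a group was 28.9, so none was a copy. A gene entered the test if its counts summed to 2 or more. The test was run with edgeR 4.0.16 in R 4.3.3 (TMM, 1 mean per group, quasi-likelihood test). Adjusted p-values are those of Benjamini and Hochberg for the 19904 genes together, and 0.05 was the threshold. Each SE was obtained by dividing the log2 fold change by the square root of F, and the 95% intervals use the t distribution. The biological coefficient of variation was 19.4%. Log2 CPM used a prior count of 2. Correlations used 100000 permutations within groups, 2-sided, and all orders for the controls. The steps were tested on simulated data. Python 3.11.15 made tables and plots.

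Named are the 9 members, the genes of the 6 further iron lists past the threshold in at least 1 treatment (at most 4 a list, by p), and the 3 genes nearest to each member that was a DEG. The members and lists were chosen with earlier results of these data known. Of the lists, Pcbp1, Pcbp2, Blvrb, Flvcr1, Fga and the markers Fcn3, Acta2 and Cd79a were not analysed here, and Ftmt was below the filter. Of 12 listed erythroid markers, 11 were found in the count table. Some planned items are not reported here. Alternatives tried were DESeq2's Wald test (DESeq2 1.42.0), scaling by its size factors in edgeR, filterByExpr, no filter, only the groups compared, a replicate block, thinned counts, and leaving out each liver.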

Additional observations from a re-analysis of the deposited data

Results flagged for a closer look

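Among 54 groups of 4 to 8 livers screened over the 9 genes, 4 held a liver far from the others of its group by Dixon's gap, and chance marks about 1 in 20 groups. Control replicate 1 was the highest control for Hamp, at 173.5 CPM, where the next control had 133.2 CPM. Control replicate 2 was the lowest control for Hfe, at 11.6 CPM, where the next had 19.4 CPM. IMZ + CTD replicate 1 was the lowest of its group both for Hfe, at 19.6 CPM where the next had 28.1 CPM, and for Fth1, at 647.6 CPM where the next had 728.0 CPM.

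The comparisons of the mixtures with their dose-weighted sums were also screened, and 1 passed the threshold among the 9 genes. The log2 fold change of Tfrc in IMZ + CTD lay 0.81 below the dose-weighted sum of IMZ and CTD (a difference of -0.81, adjusted p = 0.0166 by edgeR's quasi-likelihood test).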

How the results depend on the processing

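The 3 calls in CTD were kept under all 7 alternatives other than leaving out livers, and no called value changed its sign under any alternative. DESeq2's Wald test called 2 members in IMZ (Tfrc and Tmprss6, beside 150 of all 19904 genes) and 1 in THI + CTD (Tfr2, beside 1386). Against the sum in IMZ + CTD it called 2 (Tfrc and Tmprss6, beside 603). In CTD it also called Tfrc, as higher (log2 fold change 0.50, adjusted p = 0.0425, beside 3007 genes). In the mean of the 6 treatments it added Hfe (0.39, adjusted p = 0.0416, beside 1471 genes). The filterByExpr filter called 1 in THI + CTD (Tfr2) and 2 against the sum in IMZ + CTD (Tfrc and Tmprss6). Its calls over all genes are not given here. With only the groups compared, 2 were called in IMZ + CTD (Hamp and Tfr2, beside 379 of 18940 genes). In THI + CTD, 2 were called (Tfr2 and Hfe, beside 1007 of 18917 genes). Against the sum in IMZ + CTD, 3 were called (Hamp, Tfrc and Tmprss6, beside 284 of 19372 genes). The mean of the 6 treatments, which uses all groups, was not refitted with this setting. The relations of Hamp past the threshold numbered 2 over all livers and 0 in the controls alone.

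Leaving out 1 liver gave 2 to 4 calls in CTD, 0 to 1 in IMZ, 0 to 1 in THI + IMZ, 0 to 1 in THI + CTD, 0 to 2 in IMZ + CTD, and 0 to 2 against the sum in IMZ + CTD. In the mean of the 6 treatments it gave 2 each time. Calls over all genes are not given for these fits, so a change in the members cannot be told from a general one. With CTD replicate 1, 2 or 3 out, CTD keeps 2 livers.

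The replicate block left 3 calls in CTD, 0 in IMZ + CTD (Tfr2 -0.33, adjusted p = 0.105), 0 in the mean of the 6 treatments (Tfr2 -0.21, adjusted p = 0.139; Tmprss6 -0.18, adjusted p = 0.223) and 1 against the sum in IMZ + CTD. Of all 19904 genes this fit called 1571, 80, 240 and 162, respectively, where the main model called 2518, 290, 1143 and 230. Controls 5 to 8 have numbers that no treated group shares and so carry no weight in that fit. Over 78 pairs of livers with the same number, the correlation of their deviations ran from -0.27 to 0.42 with a median of 0.02. Pairs with different numbers had a median of -0.009. Of 27 livers, 11 correlated best with a liver of their own number. The number expected without pairing was not computed, so these values do not decide whether the numbers pair the rats. The labels name no pairing, and the main model used none. The cause of the lost calls was not tested.

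The lowest counts were those of Bmp6, at 100 to 505 a liver, and its SEs were smaller than those of Hamp, Hfe and Tfrc. The CTD livers came from 3 rats, those that remained after moribund animals of the group were killed.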
